A study of Saccharomyces cerevisiae with 2 samples.

Results

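The transcripts of 10 genes for mitochondrial metabolite carriers were compared between a budding yeast strain that carries wild-type ACS2 and a strain with acs2-Ts1, a temperature-sensitive allele of that gene. The genes were taken by symbol from the annotation of the arrays, and all 10 were found among the 5449 genes measured. They are AAC1, PET9 and AAC3 for ADP/ATP exchange, MIR1 for phosphate, DIC1, OAC1 and SFC1 for dicarboxylates, and CTP1, ODC1 and YHM2 for citrate and oxoglutarate. Each was read by 1 probe set, and none of these probe sets has a name suffix that marks possible cross-hybridization.

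Total RNA was measured on Affymetrix arrays in 2 deposited samples, 1 per strain, and each sample is the authors' mean of 2 arrays. Both strains are BY4741 derivatives of genotype MATa his3delta1 leu2delta0 met15delta0 ura3delta0 in which the chromosomal ACS2 is disrupted (acs2::HygMX). A centromeric URA3 plasmid supplies ACS2, as wild type in pHT112-1 or as acs2-Ts1 in pHT215. Both cultures grew in YPD, a rich glucose medium, and spent 60 min at 37 °C before extraction. No sample at a lower temperature was analysed here, so the effect of the allele at 37 °C cannot be told apart from a difference of strain, plasmid or culture. The titles of both samples carry the letters WT, so the strains were told apart by the genotype field alone, and the direction of every ratio rests on it. There are no replicates, so "higher" and "lower" below describe acs2-Ts1 relative to wild type in these samples, without a test.

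Carriers of this family mostly sit in the mitochondrial inner membrane, which is otherwise closed to most charged metabolites. Many of them exchange a molecule inside for another outside. ADP/ATP and phosphate carriers feed ATP synthase and export its product. Carriers of citrate, oxoglutarate, malate, oxaloacetate and succinate link the tricarboxylic acid cycle to reactions of the cytosol. Baker's yeast lacks the ATP citrate lyase by which many eukaryotes make cytosolic acetyl-CoA from exported citrate, and its cytosol relies on acetyl-CoA synthetases such as Acs2.

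The ACS2 transcript itself read 10257 in the wild-type sample and 12426 in the acs2-Ts1 sample, and as both plasmids carry the gene this does not check the labels. URA3, the marker of both plasmids, read 1853 and 7059.5. As background served the 1746 probe sets for genes of other species, whose 95th percentile set a limit of 49.1 in the wild-type sample and 46.3 in the acs2-Ts1 sample. STE2, MFA1 and BAR1 of a cells were above these limits in both samples, and MF(ALPHA)1 of alpha cells was below them in both. STE3, an alpha gene, read 214 and 59.0, above both limits.

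Of the genes with deleted alleles, LEU2 read 68.0 and 77.5, above both limits, and MET17 (met15delta0) read 47.9 and 77.5, above the limit in acs2-Ts1 only. A value above the limit therefore does not by itself show a transcript. HIS3, marked by the labels as his3delta1, read 1650 and 882. The labels do not say how much of HIS3 is missing, so whether these values are transcript or background cannot be told. All carriers apart from SFC1 were brighter than LEU2, MET17 and STE3 in both samples. HIS3 was brighter than AAC1, DIC1, OAC1, CTP1 and ODC1 in both samples, and than AAC3 in the wild-type sample. That does not set these carriers against background, since HIS3 may still be transcribed.

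The ADP/ATP carriers differed in direction. AAC3 was 1.86-fold higher and PET9 1.33-fold higher in acs2-Ts1, while AAC1 was 1.49-fold lower. The carriers of phosphate, dicarboxylates, citrate and oxoglutarate were all lower where they could be measured, from 1.21-fold for OAC1 to 2.39-fold for CTP1, and SFC1 lay in the background of both samples. In all, 8 of the 10 ratios were below 0, SFC1 included, and 2 above. Of all genes, 86.4% were below 0 and 13.6% above. CTP1 alone was at least 2-fold lower, 1 of 10, while 55.9% of all genes were. At least 2-fold higher were 0 of 10, and 3.67% of all genes. With 1.5-fold as the threshold, 4 of 10 carriers were lower (MIR1, ODC1, YHM2 and CTP1) and AAC3 was higher, against 72.0% and 6.04% of all genes.

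The median log2 ratio of the 10 genes was -0.57 and that of all genes was -1.12. The arrays read total RNA of a culture, so less RNA per cell and a different make-up of the culture cannot be told apart. The scale between the samples is the authors' fit to controls. Relative to the median of all genes, 9 of the 10 carrier ratios were above it (8 of 9 without SFC1) and CTP1 was below, at -0.14. The directions of AAC1, MIR1, DIC1, OAC1, ODC1 and YHM2 turn on that scale, to between 0.31 for YHM2 and 0.85 for OAC1. Those of AAC3, PET9 and CTP1 stay. SFC1, which lay in the background, turned to 0.98.

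**Figure D1:**
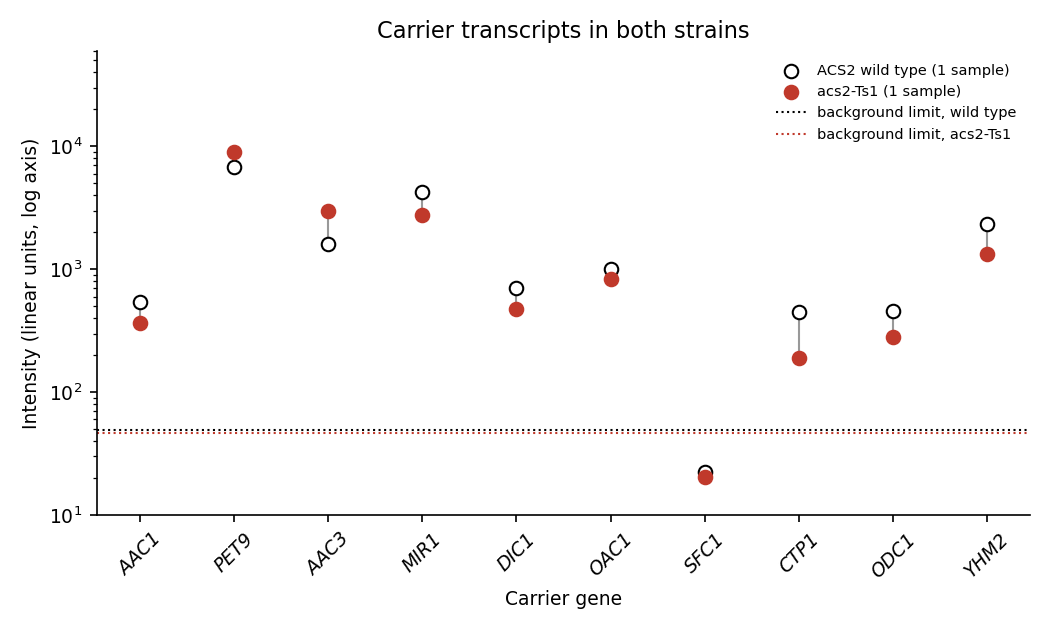
Intensity of each carrier gene (linear units on a log axis) in wild type (open circles) and acs2-Ts1 (filled circles), 1 sample each, with the background limits of both samples as dotted lines. AAC3 and PET9 are the genes with the filled circle on top, and SFC1 lies under both limits.

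PET9, also known as AAC2, encodes the main ADP/ATP carrier of respiring yeast. It read 6744 in the wild-type sample and 8977 in the acs2-Ts1 sample (log2 ratio 0.41). The value lies in the bright range of the arrays, where ratios were closest to 0. In the tenth of genes with the highest mean level, which holds PET9 and MIR1, the median log2 ratio was -0.18.

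AAC3 encodes the ADP/ATP carrier known for expression without oxygen, when the haem-dependent repressor Rox1 is low. It read 1612 in the wild-type sample and 2997 in the acs2-Ts1 sample (log2 ratio 0.89). Of all genes, 95.8% had a lower ratio than AAC3, and 92.5% a lower ratio than PET9. AAC3 was the carrier farthest above zero, and it reached no 2-fold difference as measured.

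AAC1 encodes a minor ADP/ATP carrier. It read 545 in the wild-type sample and 367 in the acs2-Ts1 sample (log2 ratio -0.57), or 67.3% of the wild-type level. The difference in log2 ratio between AAC3 and AAC1 was 1.47, so their ratio to each other was 2.76-fold higher in acs2-Ts1. Between PET9 and AAC1 it was 0.98, and between AAC3 and PET9 it was 0.48. These differences do not depend on a constant factor between the samples.

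As a yardstick within the arrays, log2 ratios of different probe sets for the same gene had a pooled SD of 0.40 over 34 genes. For the difference between 2 single probe sets this gives an SD of 0.57. The difference between AAC3 and AAC1 is 2.59 times that SD, that between PET9 and AAC1 is 1.74 times, and that between AAC3 and PET9 is 0.85 times. The SD describes disagreement between probe sets, not between cultures. Suffix probe sets were not left out of it, although no carrier is read by such a probe set. These multiples take no account of brightness. The log2 ratio typical of genes as bright was -0.70 at AAC3, -0.09 at PET9 and -1.24 at AAC1. Removing it (below) narrows the difference between AAC3 and AAC1, turns that between PET9 and AAC1, and widens that between AAC3 and PET9. The ADP/ATP carriers are close in sequence, and cross-hybridization between their transcripts was not tested.

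MIR1 encodes the main phosphate carrier of the inner membrane, which brings in the phosphate for ATP synthesis. It read 4264 in the wild-type sample and 2766 in the acs2-Ts1 sample (log2 ratio -0.62). PIC2 encodes another phosphate carrier, which also carries copper, and read 543 and 551. The log2 ratio of PIC2 was thus 0.64 above that of MIR1.

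DIC1 encodes the dicarboxylate carrier, which exchanges malate or succinate for phosphate. It read 703 in the wild-type sample and 475 in the acs2-Ts1 sample (log2 ratio -0.56). OAC1 encodes the carrier of oxaloacetate and sulfate, which also exports an intermediate of leucine synthesis. It read 1007 and 834, and with a log2 ratio of -0.27 it was the closest to 0 among the carriers above background.

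SFC1 encodes the succinate-fumarate exchanger, which is needed for growth on ethanol or acetate and is repressed by glucose. It read 22.5 in the wild-type sample and 20.4 in the acs2-Ts1 sample. Both values lie below the background limits, so no fold is given, and the log2 ratio of -0.14 describes background. Without SFC1 the median of the other 9 genes was -0.57.

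CTP1 encodes the citrate carrier. It read 453 in the wild-type sample and 189 in the acs2-Ts1 sample (log2 ratio -1.26), or 41.8% of the wild-type level. This was the lowest ratio of the 10, yet 42.4% of all genes had a lower one. YHM2, which exchanges citrate for oxoglutarate, read 2347 and 1332, a log2 ratio of -0.82. It was 1.76-fold lower, at 56.8% of the wild-type level.

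ODC1 encodes a carrier of oxoglutarate and oxoadipate. It read 458 in the wild-type sample and 282 in the acs2-Ts1 sample (log2 ratio -0.70). Its paralogue ODC2 read 768 and 676, a log2 ratio of -0.18. The ratio of ODC2 was 0.52 above that of ODC1 on the log2 scale, which is within the SD of 0.57.

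**Figure D2:**
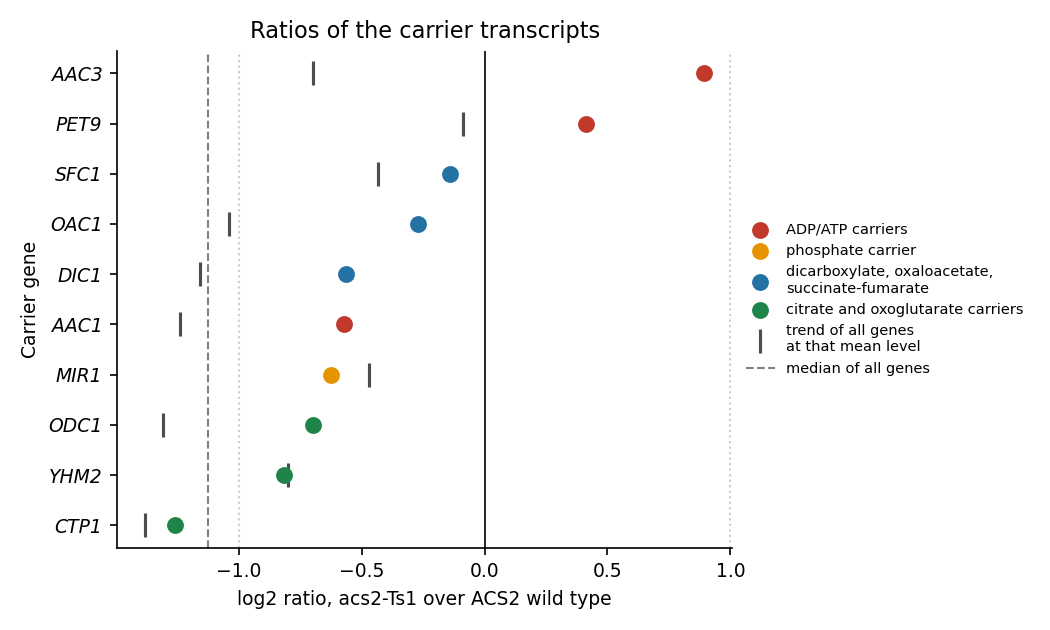
Log2 ratio (acs2-Ts1 divided by wild type) for each carrier gene (points, coloured by transported metabolite), with the trend of all genes at that mean level (vertical ticks) and the median of all genes (dashed line). Only AAC3 and PET9 lie right of 0, and MIR1 and YHM2 lie left of their ticks.

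In falling order of log2 ratio the 9 carriers above background were AAC3, PET9, OAC1, DIC1, AAC1, MIR1, ODC1, YHM2 and CTP1, and SFC1 was not ranked. The step from PET9 to OAC1 was 0.69, larger than the SD of 0.57 for such a difference. That step is the largest of a list sorted by the same values. With the dependence on brightness removed (below), OAC1 stood above PET9. All other steps were smaller, from 0.0084 between DIC1 and AAC1 to 0.48 between AAC3 and PET9, so those neighbours are not separated by that yardstick.

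Ratios depended on brightness in these samples. Of the carriers, 7 of 10 had a mean level above the median of all genes, and among genes above that median 43.6% were at least 2-fold lower. A lowess curve of the log2 ratio on mean level gave, at the level of each carrier, the value typical of all genes there. That value ran from -1.38 at CTP1 to -0.09 at PET9. Measured from the curve, 8 of 10 carriers were above it (7 of 9 without SFC1), against 2673 of 5449 genes.

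AAC3 was 1.59 above the curve, OAC1 0.77, AAC1 0.67, ODC1 0.61, DIC1 0.59 and PET9 0.50. CTP1 was 0.12 above it, so its 2-fold lower level was close to that of other genes as bright. YHM2 at -0.02 and MIR1 at -0.15 were on or slightly below the curve. On this scale OAC1, AAC1, ODC1 and DIC1 stood above PET9, so their order with PET9 turns when the trend with level is removed. AAC3 stayed the highest.

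**Figure D3:**
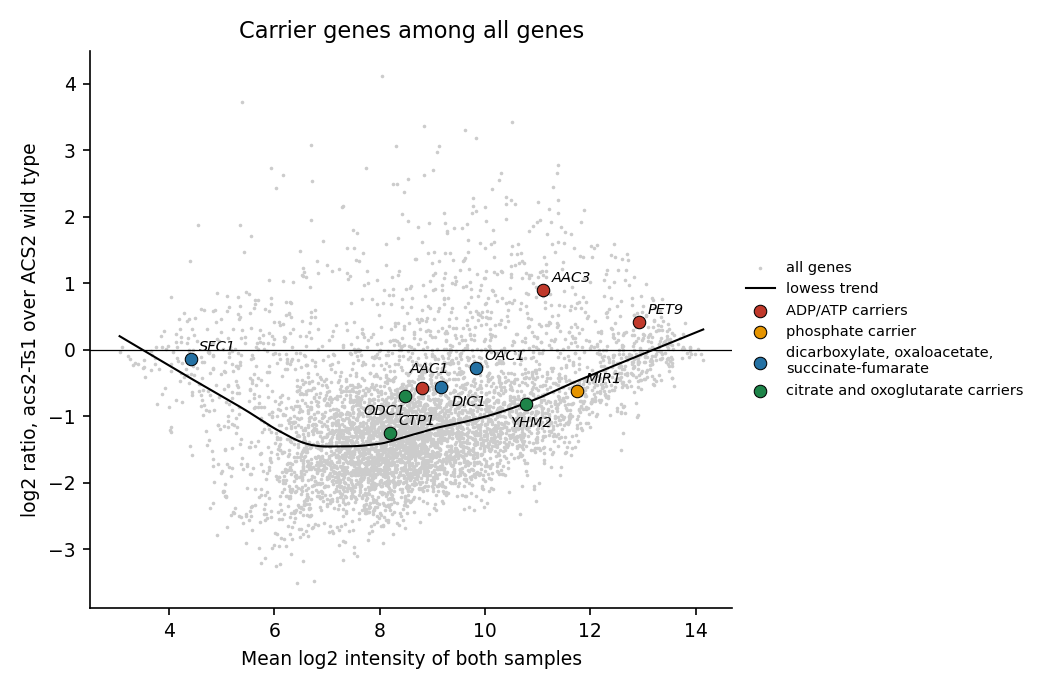
Log2 ratio (acs2-Ts1 divided by wild type) against the mean log2 intensity of both samples for all 5449 genes (grey) and the carriers (coloured), with the lowess trend as a line. AAC3 lies 1.59 above the line, and MIR1, YHM2 and CTP1 lie close to it.

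Of 24 other genes of the carrier family, 22 were measured, and MRX20 and MRX21 were not analysed here. All 22 were above background in both samples, 20 were lower and 2 higher, and 10 were at least 2-fold lower, where all genes had shares of 86.4% lower and 55.9% at least 2-fold lower. For a list of 22 genes both counts are near the general shares. The median log2 ratio of the 22 genes was -0.93, against -0.57 for the 10 carriers, and 0.22 against 0.55 with the trend with level removed. With 1 sample per strain this difference was not tested.

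The lowest ratio in the family was that of MME1, for magnesium export from mitochondria, at 596 in the wild-type sample and 132 in the acs2-Ts1 sample. FLX1, needed for flavin transport, read 334 and 87.0, and HEM25, which brings in glycine for haem synthesis, read 251 and 68.3. MME1 was 4.51-fold and FLX1 3.83-fold lower, and no fold is given for HEM25, which was dimmer in acs2-Ts1 than the deleted LEU2. At the other end stood ODC2, PIC2 and MRS3, the last for iron import, which read 586 and 643.

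MRS3 and its paralogue MRS4 differed in log2 ratio by 1.09, since MRS4 was 1.94-fold lower. The paralogues YMC1 and YMC2 differed by 0.08 and the NAD carriers YIA6 and YEA6 by 0.16, both less than the SD of 0.57. The pairs were named after their values were seen.

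**Figure D4:**
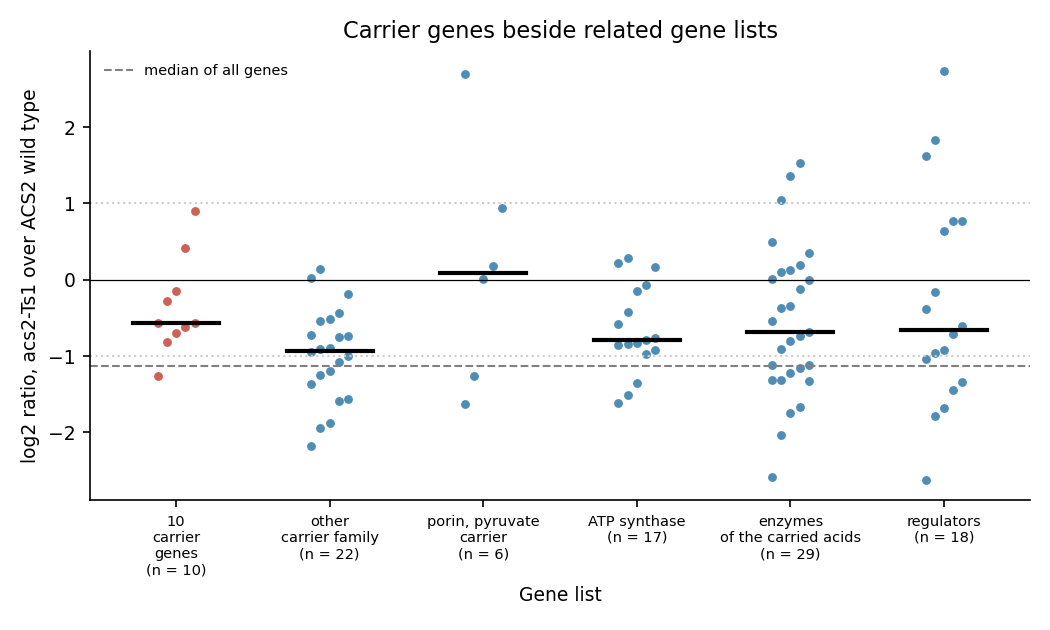
Log2 ratio (acs2-Ts1 divided by wild type) for each gene (points) of 6 lists, with the list median (bar) and the median of all genes (dashed line). The 10 carriers have a median of -0.57, and the 22 other family members have a median of -0.93.

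Transport into mitochondria also needs the porin of the outer membrane and, for pyruvate, a separate carrier complex. POR1, the main porin, read 9768 in the wild-type sample and 11068 in the acs2-Ts1 sample, and its minor paralogue POR2 read 689 and 287. The pyruvate carrier pairs Mpc1 with Mpc2 in fermenting cells or with Mpc3 in respiring cells. MPC3 read 202 and 1312, which is 6.50-fold higher, with a wild-type value no brighter than the 214 of STE3. MPC2 read 3765 and 7254, or 1.93-fold higher.

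MPC1, the shared subunit, read 1534 and 499 and was 3.08-fold lower. The subunits of this carrier thus differed in direction, also relative to the median of all genes, where MPC1 stood at -0.50 and MPC3 at 3.82. OM14, for an outer membrane protein, read 2209 and 2214. Past the 2-fold threshold were 3 of the 6 genes in this list, MPC3 upwards and MPC1 and POR2 downwards, while 3.67% of all genes passed it upwards and 55.9% downwards.

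ATP synthase uses the ADP and phosphate that Pet9 and Mir1 bring in. Of 17 genes for its subunits and regulators, 14 were lower and 3 higher. The 2-fold threshold was passed by 3 of the lower and 0 of the higher genes, against 55.9% and 3.67% of all genes. Their median log2 ratio was -0.79. ATP1, for the alpha subunit, read 7248 and 8155, and ATP14 read 825 and 963. ATP19, ATP20 and ATP16 were 3.07-fold, 2.84-fold and 2.56-fold lower, and STF2, for a factor tied to the inhibitor of the enzyme, was 1.22-fold higher.

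Enzymes that make or use the carried acids numbered 29 measured genes. Of these, 19 were lower and 10 higher, and the median log2 ratio was -0.68. The 2-fold threshold was passed by 11 of the lower and 3 of the higher genes, where the shares of all genes were 55.9% and 3.67%. The 3 highest were ICL1, CIT2 and PYC1. PYC1, a pyruvate carboxylase that makes oxaloacetate in the cytosol, read 4482 in the wild-type sample and 9267 in the acs2-Ts1 sample, or 2.07-fold higher.

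The lowest above background were OSM1, MDH3 and FUM1. OSM1, a fumarate reductase, read 743 and 181, or 4.11-fold lower, and its paralogue FRD1 read 3668 and 2201. Citrate is made in mitochondria by CIT1, which read 3870 and 4225, and turned over by ACO1, which read 8331 and 10614. CTP1 and YHM2, for the citrate carriers, were thus lower while CIT1 and ACO1 were slightly higher, as measured. Relative to the median of all genes, YHM2 was also higher, at 0.31, and CTP1 was at -0.14. FRD1, CIT1 and ACO1 were named after their values were seen.

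Of 18 regulators of respiratory and related genes, 12 were lower and 6 higher, and 6 of the lower and 3 of the higher genes passed the 2-fold threshold. All genes had 86.4% lower, and 55.9% and 3.67% past that threshold. ROX1, for the repressor of AAC3 and other hypoxic genes, read 310 in the wild-type sample and 485 in the acs2-Ts1 sample, or 1.56-fold higher. MOT3, another repressor of hypoxic genes, was 3.56-fold higher at 363 and 1292. HAP1, for a haem-responsive activator, was 3.08-fold higher at 1528 and 4709. AAC3 and the genes of both repressors were thus all higher.

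HAP4, for the activating subunit of the Hap complex that drives respiratory genes, read 178 and 304, and HAP3 read 211 and 61.2, dimmer in acs2-Ts1 than the deleted LEU2. LEU3, for a regulator of OAC1 and of leucine synthesis, was 3.19-fold lower at 318 and 99.8, next to a 1.21-fold lower OAC1. CAT8, for an activator of SFC1 and of gluconeogenesis, read 129 and 84.3. SIP4, for a related activator, was higher, while RTG3, of the retrograde response from mitochondria to nucleus, was 2.71-fold lower at 278 and 102.

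By RefSeq gene order the carriers lie on 6 chromosomes, with AAC3, CTP1 and PET9 on II, AAC1 and YHM2 on XIII and MIR1 and SFC1 on X. Of the 20 protein-coding genes directly next to them, 19 were measured. Among these, 14 were lower and 5 higher, 8 were at least 2-fold lower, and the median log2 ratio was -0.88. All genes had 86.4% lower, 55.9% at least 2-fold lower and a median of -1.12. Leaving aside SFC1, a lower ratio than the adjoining carrier was found for 9 of 17.

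Both carriers that were higher have a neighbour that was also higher, as do 3 carriers that were lower. Those 3 are ODC1 next to ISU1 at 0.45, AAC1 next to FET3 at 0.19 and MIR1 next to BNA2 at 0.14. YBR085C-A, next to AAC3, read 2325 in the wild-type sample and 4456 in the acs2-Ts1 sample (log2 ratio 0.94, beside 0.89 for AAC3). YBL029C-A, next to PET9, read 538 and 828, a log2 ratio of 0.62. On the other side, RPL19A next to AAC3 had -0.62 and SHE1 next to PET9 had -0.95. The neighbours were named after their values were seen.

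**Figure D5:**
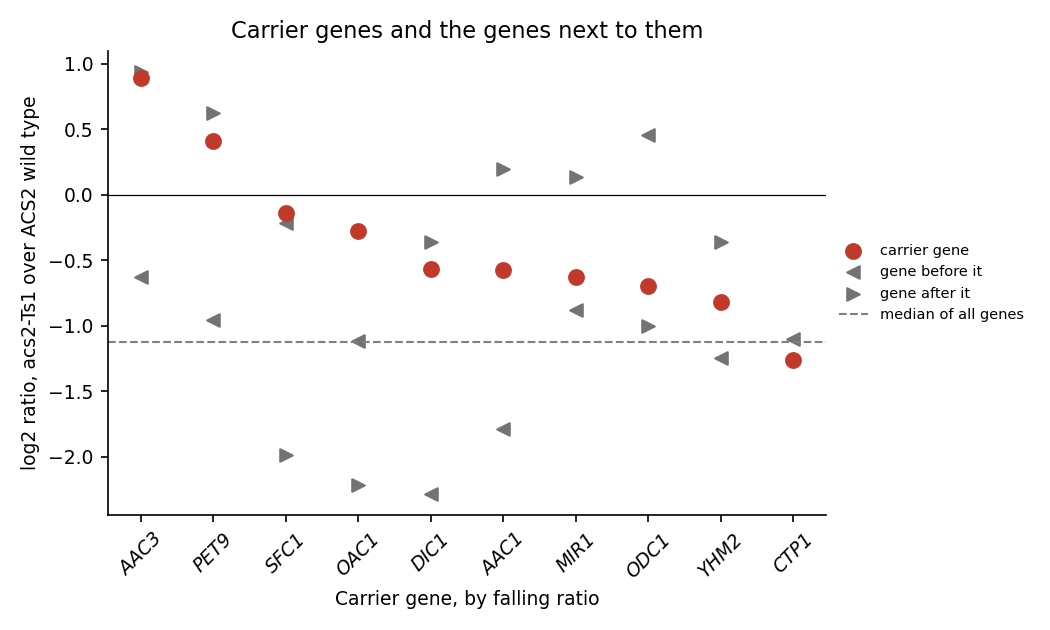
Log2 ratio (acs2-Ts1 divided by wild type) for each carrier gene (circles) and for the protein-coding genes before and after it in RefSeq order (triangles), with the median of all genes (dashed line). AAC3 and PET9 each have a neighbour above 0 and a neighbour below 0.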

How the data were processed

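The deposited values are probe set intensities. They come from 4 arrays, which the authors background-corrected and averaged by strain, 2 arrays each, before a lowess normalization to controls, per the design text of the series and the labels. The submitters' processing notes name RMA. No scaling or quantile normalization was applied, per the labels. Which controls served, how probes were summarised and with what software is not given in the sources used. An error in that curve would shift genes of like brightness together, and bright and dim genes by different amounts.

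Of 10928 probe sets, 5498 matched 5449 genes of the RefSeq R64 gene table, used for names and gene order. Each gene was read by its brightest probe set that has no suffix letter, and 81 genes had only a suffix probe set. Log2 ratios (acs2-Ts1 divided by wild type) were taken with no pseudocount. As each group is 1 sample, no test was possible, and the number of arrays limits the precision. The calculation was tested on simulated data that had no shift of all genes and no trend with level. The changes put in were larger than the ratio of any carrier, so this checks only the arithmetic. The members and gene lists were chosen with earlier results of these data known. Named genes are the members, their listed paralogues and regulators, and up to 3 genes at each end of a list with both values above background. The alternatives were other centrings, probe set rules, filters, an added 32, background subtraction, removal of the trend with level (lowess span 0.3) and fold thresholds of 1.5 and 3. Python 3.11.15, pandas 2.3.3 and statsmodels 0.14.6 were used. No sequences were used here.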

Additional observations from a re-analysis of the deposited data

How the results depend on the processing

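The median log2 ratio of the 10 carriers, -0.57 as deposited, became 0.56 when both samples were centred on the all-gene median and 0.55 when the trend with level was removed. Both alternatives take a shift of all genes out by construction. At least 2-fold lower were then 0 carriers under either, and at least 2-fold higher were 2 with centring, AAC3 and PET9, and 1 with the trend removed, AAC3. All genes then had 6.61% lower and 16.4% higher with centring, and 4.06% and 12.3% with the trend removed, so these counts are near the general shares. The ratio of CTP1 turned from -1.26 to 0.12 with the trend removed. With background subtracted 1 carrier was at least 2-fold higher, which is SFC1 at 1.21, from values below the background limits. At a threshold of 1.5-fold, 4 carriers were lower and 1 higher, against 72.0% and 6.04% of all genes, and at 3-fold 0 were lower, against 25.8%.

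Centring on bright or on hybridization controls, the mean of all probe sets, omitting suffix probe sets and adding 32 kept all 10 ratios within the SD between probe sets. The probe set rules could not change them, as each carrier has 1 probe set, without a suffix. The deposited values were already fitted to controls, and the shifts taken off were -0.02 for bright and -0.005 for hybridization controls. Leaving out dim genes drops SFC1 and by construction leaves the other 9 ratios as they were. The median stayed between -0.58 and -0.53 under these, with background subtracted and without SFC1, a setting added after seeing the data. No paired analysis was possible because each strain is 1 sample. The dim end is limited by background, and precision by the number of arrays.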
